A study of Mus musculus with 10 samples.

Results

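The expression profile of differentiated chondrocytes was set against that of in vivo osteocytes, by subtracting the log2 intensity of each probe on the osteocyte array from its log2 intensity on the chondrocyte array. These were 2 of the 10 samples of the series, with 1 array a side. The series profiled total RNA of cells from C57BL/6J mice on Illumina mouse whole-genome bead arrays, on which each probe is a short oligonucleotide on beads and its brightness measures 1 transcript. The chondrocyte sample was labelled as differentiated, the osteocyte sample as derived in vivo, and both name adult mouse marrow MSC (mesenchymal stem cells, the marrow stromal progenitors of fat, cartilage and bone) as their source. Neither label gives an agent, a time in culture, an age or a sex. The other 8 arrays were 1 each of treated in vivo osteocytes, differentiated adipocytes, differentiated osteocytes, reprogrammed adipocytes, reprogrammed chondrocytes and reprogrammed osteocytes, and 2 of undifferentiated MSC. The agent of the treated sample and the way of reprogramming are not stated in the labels.

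Chondrocytes make cartilage, a matrix of type II collagen and the proteoglycan aggrecan that is held together by smaller linking proteins such as COMP. Osteoblasts make bone on a type I collagen scaffold under the transcription factors RUNX2 and SP7, secrete osteocalcin and mineralise the scaffold with the phosphatase ALPL. Those that become buried in it turn into osteocytes, which are known by DMP1, MEPE, PHEX and sclerostin, the product of Sost. Bone also holds many macrophages, the phagocytes that clear debris and iron-rich red cells.

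Of 45281 probes, 17683 had a detection p-value under 0.01 on at least 1 of the 2 arrays, and they represented 9936 named genes. Among these probes, 1366 were at least 2-fold higher in differentiated chondrocytes (7.72%) and 1193 at least 2-fold lower (6.75%), while 15124 (85.5%) lay within that range. In genes, each taken at its brightest probe, 687 were at least 2-fold higher (6.91%) and 764 at least 2-fold lower (7.69%), with a median difference of -0.07 (log2) over all genes detected. The counts for gene lists below stand beside these shares over all genes, as descriptions only. With 1 array a side there was no replicate of either population, so no test was made and each fold compares 2 libraries. The only spread between samples of 1 population came from the MSC arrays, and the labels do not say whether those were separate cultures. Between the MSC arrays, 1462 of 17060 probes were at least 2-fold higher in MSC 2 than in MSC 1 (8.57%) and 1426 at least 2-fold lower (8.36%). The median absolute difference was 0.38 (log2) between chondrocytes and osteocytes and 0.44 between the MSC arrays. The difference between chondrocytes and osteocytes therefore did not involve more probes than the difference between 2 samples of MSC, and it was the larger of the 2 differences for 4821 of the 9936 genes (48.5%).

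**Figure D1:**
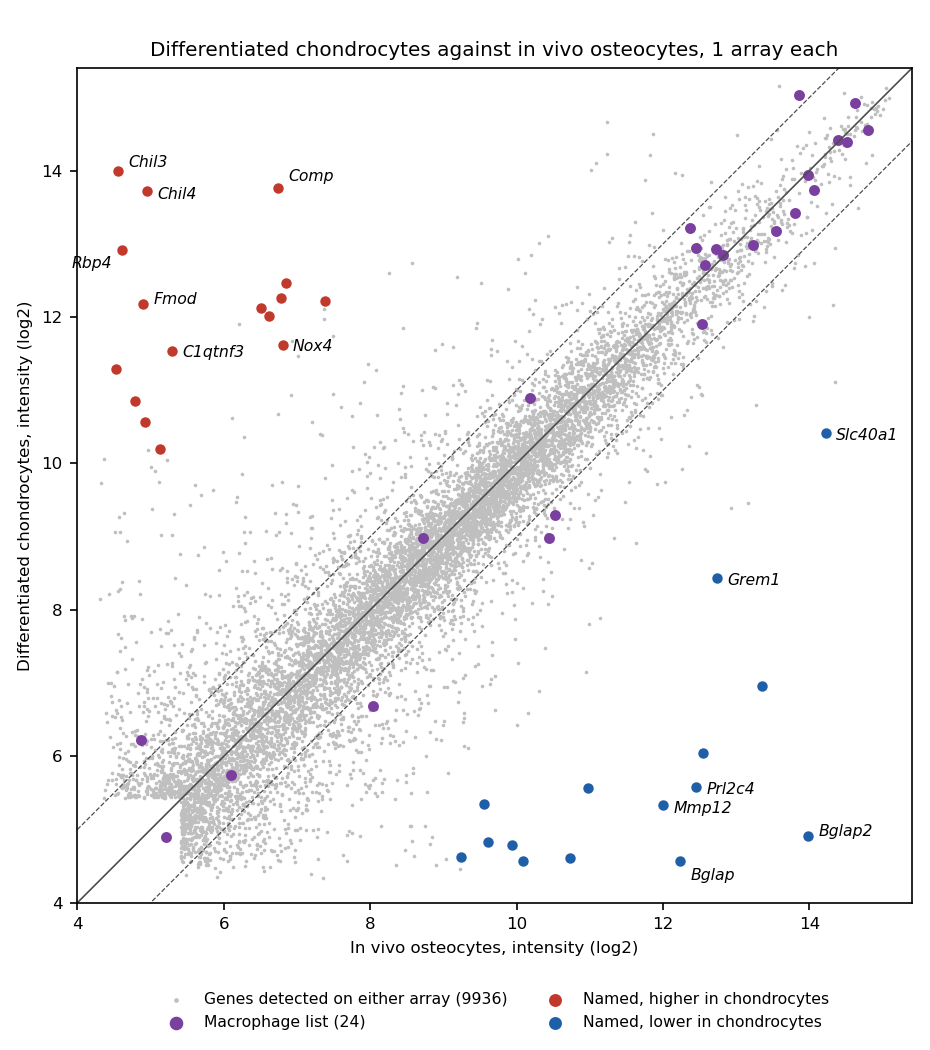
Log2 intensity of each of 9936 genes in differentiated chondrocytes (vertical axis) against in vivo osteocytes (horizontal axis), 1 array each, with the line of equal level and dashed lines at 2-fold. Purple points are the 24 measured genes of the macrophage list, of which 23 were detected and 18 of these lie within 2-fold. The named genes (red, higher in chondrocytes, and blue, lower) lie far from the line of equal level: Comp at 13.77 against 6.74 and Bglap2 at 4.91 against 13.98.

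The arrays of differentiated chondrocytes and in vivo osteocytes resembled each other more than either resembled any other array. Over 22172 probes their log2 intensities had a Pearson correlation of 0.947, as a description across probes that share the platform, whereas each of the other 8 arrays correlated with either of them between 0.799 and 0.858. A total of 358 genes were detected on both arrays and on none of the other 8, and 15 of these belong to the list of 24 measured macrophage markers. Of the 358 genes, 42 were at least 2-fold higher in chondrocytes, 48 at least 2-fold lower and 268 within 2-fold. The share past 2-fold was thus 25.1% in these genes, against 14.6% of all 9936 genes. A further 137 genes were detected on the chondrocyte array alone of the 10 and 137 on the osteocyte array alone.

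Cartilage genes bore out the chondrocyte label in part, through single genes and not through the list. Of 23 measured genes of a chondrocyte list, 9 were detected in chondrocytes and 4 in osteocytes, so that 5 of the 9 entered only through the chondrocyte array. Of these 9, 5 were at least 2-fold higher in chondrocytes and 0 lower, a count that was 3 without background correction, or when 50 in place of 16 intensity units (the offset) was added after it. Over all 23 the median difference was 0.12 (log2). Comp, the pentameric protein that links cartilage collagens, read 13.77 in chondrocytes and 6.74 in osteocytes on the log2 scale, a 130-fold difference. The other 8 arrays read between 4.37 and 4.72 for Comp, all without detection, so both compared arrays stood above them. Col2a1, the type II collagen that defines cartilage, read 8.28 in chondrocytes and was not detected in osteocytes at 4.58, which gives at least a 7.30-fold difference. Folds written with "at least" are taken against the lowest detected signal of the array where the gene was not detected. Col2a1 was however brighter on the arrays of reprogrammed adipocytes, chondrocytes and osteocytes, at 11.09, 10.38 and 10.31, than in the differentiated chondrocytes.

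Chad, encoding chondroadherin, a cartilage protein that binds chondrocyte integrins, read 8.25 in chondrocytes against 4.55 in osteocytes, where it was not detected, and no more than 4.78 elsewhere, at least a 7.15-fold difference. Sox5, a partner of SOX9 in the chondrocyte programme, read 6.73 against 5.29, at least a 2.48-fold difference, but MSC 1 and MSC 2 read 9.05 and 7.10, and another Sox5 probe differed by 0.28 (log2). Cilp2 read 6.26 against 4.45, a measured difference of 1.81 (log2) that is only bounded at 1.80-fold because osteocytes lacked detection. Sox9, the master regulator of chondrocytes, did not separate the samples, at 9.41 against 9.54. Col9a3, a chain of the type IX collagen on cartilage fibrils, stayed just under 2-fold, at 7.39 against 6.40, and both values exceeded the 4.37 to 4.57 of the other 8 arrays. The remaining 14 genes were not detected on either array, among them Acan (aggrecan), Col9a1, Col11a1, Hapln1, Matn1 and the hypertrophic collagen Col10a1. The chondrocyte label thus rests mainly on Comp and Chad. The Col2a1 signal was modest and lower than on the reprogrammed arrays, and no aggrecan probe was detected on either compared array.

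The genes of bone showed the opposite pattern at osteocalcin and at Sp7, a regulator of osteoblasts. Of 14 detected genes of an osteoblast list of 17 measured, 6 were at least 2-fold lower in chondrocytes and 2 at least 2-fold higher, and the median was -0.80 (log2), or -0.40 over all 17. Bglap2, 1 of the tandem osteocalcin genes, was not detected in chondrocytes at 4.91 and read 13.98 in osteocytes, at least a 376-fold difference. Bglap read 4.56 in chondrocytes, again without detection, against 12.24 in osteocytes, at least 112-fold lower. Among the other 8 arrays the highest Bglap2 values were 8.79 in differentiated osteocytes and 8.63 in treated in vivo osteocytes. Osteocalcin was therefore brightest on the in vivo osteocyte array by a wide margin. Bglap and Bglap2 are near-identical copies, so their probes may read each other's transcript.

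The other lower members of the osteoblast list differed by less. Sp7 (osterix), which commits cells to the osteoblast lineage, read 6.47 in chondrocytes and 9.27 in osteocytes, 7.00-fold lower. Alpl, the tissue-nonspecific alkaline phosphatase, read 6.48 against 8.89, 5.33-fold lower, and no other array exceeded 6.86. Omd, a leucine-rich proteoglycan of bone, read 5.89 against 7.57, and Mmp13, a collagenase of bone and growth plate, 12.44 against 13.67. Sp7 was not particular to the osteocyte array, since both MSC arrays read 9.56, whereas Alpl was brighter there than on any other.

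Other osteoblast genes did not follow. Col1a1 and Col1a2, the chains of type I collagen, were higher in chondrocytes, by 2.34-fold at 12.83 against 11.60 and by 2.97-fold at 13.12 against 11.55. Ibsp, bone sialoprotein, was detected on both arrays at similar levels, 8.46 against 8.87, above the 4.67 to 5.87 of the other 8. Sparc (osteonectin) read 14.53 against 14.00, and Pth1r, the parathyroid hormone receptor, 7.16 against 6.79. A high type I collagen level and detected Ibsp and Pth1r were thus found in the sample labelled as chondrocytes too.

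The markers that define osteocytes were absent. Dmp1, Mepe, Phex, Sost and Fgf23 were not detected on either array, with levels between 4.40 and 5.00 in the sample labelled as in vivo osteocytes. Of 16 measured genes of the osteocyte list, 8 were detected, 2 of them at least 2-fold lower and 2 at least 2-fold higher in chondrocytes, and the median was -0.45 (log2). Pdpn, podoplanin, a membrane protein of early osteocytes, read 12.00 in chondrocytes and 13.99 in osteocytes, 3.98-fold lower, but 6 of the other 8 arrays read between 11.97 and 12.69 and differentiated osteocytes 13.52. Tnfsf11 (RANKL), the inducer of osteoclasts that osteocytes supply, was higher in chondrocytes, at 7.94 against 5.37, at least 5.77-fold. Tnfrsf11b (osteoprotegerin), its decoy receptor, was also higher, at 11.05 against 8.45, 6.06-fold. The osteocyte label was therefore met by osteocalcin and Alpl, which belong to the osteoblast list, and not by the late osteocyte genes. Pdpn did not set the sample apart from differentiated osteocytes. The summed osteocyte list was not highest there either, at 36992 against 48028 in differentiated osteocytes. It was also higher in MSC 1, at 45891, and in reprogrammed osteocytes, at 39016.

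**Figure D2:**
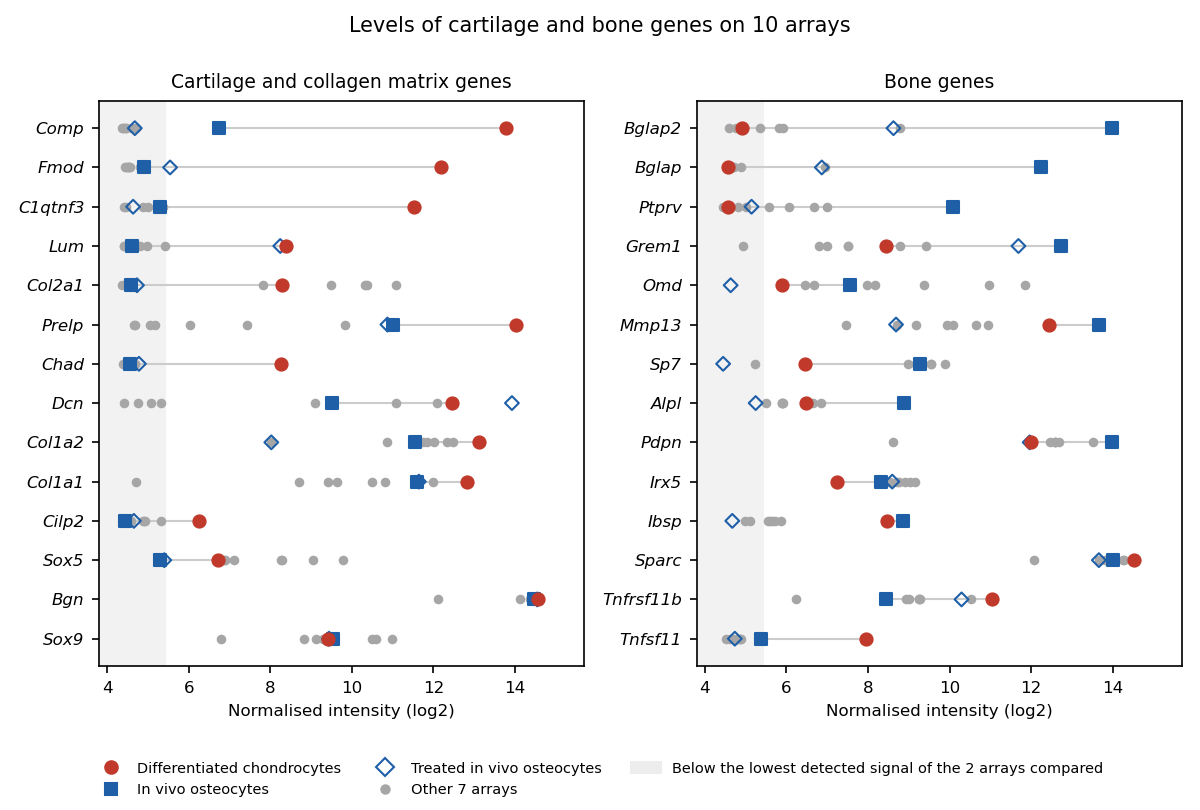
Log2 intensity (horizontal axis) of 14 cartilage and collagen matrix genes (left) and 14 bone genes (right) on 10 arrays: differentiated chondrocytes in red, in vivo osteocytes in blue, treated in vivo osteocytes as open diamonds and the other 7 arrays in grey; each point is 1 array and the shaded band lies below the lowest detected signal. Comp, Fmod and C1qtnf3 are bright in chondrocytes alone, osteocalcin (Bglap, Bglap2) is bright in in vivo osteocytes, and Sox9, Bgn, Ibsp and Sparc do not separate the pair.

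The stretches before the start sites of Bglap, C1qtnf3 and Marco are shown because each gene stands for 1 side or 1 cell type of the comparison: bone, cartilage and macrophages. They are the 250 bases before the RefSeq start on GRCm38.p6, 5′ to 3′ on the gene's strand, with capitals marking matches on either strand. The letters searched were TGTGGT for the core of RUNX sites, then TATAAA for the element of the same name that lies before many start sites, and lastly GAGGAA for the site known as the PU box.
Bglap: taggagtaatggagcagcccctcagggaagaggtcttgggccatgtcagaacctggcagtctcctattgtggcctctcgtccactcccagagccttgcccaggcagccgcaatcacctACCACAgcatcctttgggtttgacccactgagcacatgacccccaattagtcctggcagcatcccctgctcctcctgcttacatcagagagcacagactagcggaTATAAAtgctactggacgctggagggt
C1qtnf3: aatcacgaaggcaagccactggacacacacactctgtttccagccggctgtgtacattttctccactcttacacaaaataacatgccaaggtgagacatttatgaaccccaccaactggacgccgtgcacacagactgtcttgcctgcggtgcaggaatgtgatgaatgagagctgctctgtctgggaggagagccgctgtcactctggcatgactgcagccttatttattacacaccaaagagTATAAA
Marco: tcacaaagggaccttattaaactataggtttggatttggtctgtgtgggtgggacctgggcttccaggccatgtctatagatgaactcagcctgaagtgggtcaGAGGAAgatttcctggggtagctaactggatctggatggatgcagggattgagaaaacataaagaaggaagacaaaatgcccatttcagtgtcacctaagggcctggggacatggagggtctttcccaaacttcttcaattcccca
The stretch of Bglap lies at chr3:88384467-88384716, minus strand, and holds TGTGGT on the opposite strand 132 to 127 bases before the start and TATAAA 27 to 22 bases before it. That of C1qtnf3 lies at chr15:10952082-10952331, plus strand, with TATAAA 6 to 1 bases before the start, and that of Marco at chr1:120505025-120505274, minus strand, with GAGGAA 146 to 141 bases before it. Of 32851 RefSeq promoters of the same length, 14.0% hold the RUNX core, 12.4% the TATA element and 23.3% the PU box, and these matches of letters are descriptions only. Of the 31 genes with the largest differences, 22 had an entry in the promoter table.

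Beyond the lists, the largest differences above osteocytes were at chitinase-like and secreted proteins. The 16 named genes were the 15 largest by fold or bound, and the 15 largest again after blood and muscle markers were set aside. Chil3, a secreted chitinase-like protein of macrophages and neutrophils, read 14.00 in chondrocytes and 4.55 in osteocytes, at least 383-fold higher, and between 4.59 and 4.96 on the other 8 arrays. Its close paralogue Chil4 read 13.72 against 4.95 at its brightest probe, at least 316-fold higher, and that probe may read Chil3. The other Chil4 probe was not detected on either array, at 4.32 against 4.47. Both were detected on the chondrocyte array alone. Of 14 measured neutrophil markers, Chil3 among them, 10 were not detected on either array, including S100a9, Ngp, Ltf, Elane and Mpo, while S100a8 read 10.17 against 9.29 and Lcn2 9.73 against 4.33. The summed neutrophil intensity was 18648 in chondrocytes and 966 in osteocytes, and highest in differentiated adipocytes at 33365. Most of the chondrocyte sum was Chil3 itself, without which it was 2303 in chondrocytes and 943 in osteocytes. The part of these markers in the result was not tested.

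Several of the remaining genes belong to connective tissue. Fmod (fibromodulin), which spaces collagen fibrils in tendon and cartilage, read 12.18 in chondrocytes and 4.90 in osteocytes, at least 109-fold higher. C1qtnf3, a C1q-related protein secreted by cartilage, read 11.53 against 5.29, at least 69.5-fold higher, and at most 5.38 elsewhere. Ecrg4, a secreted peptide precursor, read 12.47 against 6.85, 49.3-fold higher. Nox4, an NADPH oxidase that makes hydrogen peroxide, read 11.62 against 6.80, 28.2-fold higher, and at most 9.09 elsewhere. Fmod, C1qtnf3 and Nox4 were brighter in chondrocytes than on any other array.

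Rbp4, the retinol carrier of plasma, read 12.92 against 4.61, at least 182-fold higher, and 9.08 at most on another array. Saa3, an acute-phase serum amyloid, read 12.12 against 6.51, 48.7-fold higher, with 10.67 as the highest other value. Lrg1, a secreted leucine-rich glycoprotein, read 10.86 against 4.79, at least 43.4-fold higher. Jaml, a leukocyte adhesion molecule, read 11.29 against 4.53, at least 58.8-fold higher, and Bst1, a surface ectoenzyme named for marrow stromal cells, 10.56 against 4.92, at least 35.5-fold higher. Lrg1, Jaml, Bst1, C1qtnf3, Chil3 and Chil4 were detected on the chondrocyte array alone of the 10.

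For 4 of the 16 genes, Hp, Il1rn, Smoc1 and Fkbp5, chondrocytes were not the brightest of the 10 arrays. Hp (haptoglobin), which binds free haemoglobin, read 12.26 in chondrocytes against 6.78 in osteocytes, 44.5-fold higher, but the other 8 arrays had a median of 10.65 and reached 14.83. Il1rn, the interleukin-1 receptor antagonist, read 12.22 against 7.38, 28.8-fold higher, while MSC 1 read 12.95. Smoc1, a secreted calcium-binding matrix protein, read 10.20 against 5.14, at least 27.6-fold higher, and between 9.57 and 11.72 on the other 8 arrays. The Smoc1 difference was thus a low reading in osteocytes rather than a high 1 in chondrocytes. Over all 687 genes at least 2-fold higher, chondrocytes were the brightest of the 10 arrays for 364 (53.0%) and osteocytes the dimmest for 158 (23.0%), as a description of genes chosen by that same difference.

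The largest differences below osteocytes were at osteocalcin, the proliferins and Mmp12, which is given with the macrophage genes. Prl2c4, Prl2c3 and Prl2c2, placental prolactin-family hormones that are near-identical in sequence, read 5.58, 6.05 and 6.97 in chondrocytes and 12.45, 12.55 and 13.35 in osteocytes, or 118-fold, 90.5-fold and 83.7-fold lower. Their probes may read each other. On the other 8 arrays Prl2c4 had a median of 11.88 and Prl2c2 of 12.78, so the chondrocyte array was low rather than the osteocyte array high. The MSC arrays differed from each other by 5.72, 5.56 and 6.05 (log2) in the same genes, nearly as much as the chondrocyte and osteocyte arrays did. Of the 15 named lower genes, 9 differed by at least 2-fold between the MSC arrays, and of the 16 named higher genes 4 did.

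Akr1c18, a hydroxysteroid dehydrogenase that inactivates progesterone, read 5.56 in chondrocytes and 10.97 in osteocytes, 42.6-fold lower. Prss35, a secreted serine protease-like protein, read 4.62 against 10.72, at least 39.4-fold lower. Ptprv, a phosphatase known from osteoblasts and testis, read 4.58 against 10.09, at least 25.3-fold lower, and at most 6.99 elsewhere. These 3 genes were brightest on the in vivo osteocyte array.

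Grem1 (gremlin), which binds and blocks BMPs, read 8.43 against 12.74, 19.8-fold lower, with 11.69 in treated in vivo osteocytes as the next highest value. Ifi202b, an interferon-inducible DNA-binding protein, read 4.79 against 9.93, at least 22.7-fold lower, but 7 of the other 8 arrays detected it, with a highest value of 10.11. Serpinb2, an inhibitor of plasminogen activators, read 4.84 against 9.61, at least 18.1-fold lower, and was detected nowhere else. Slc40a1 (ferroportin), which exports iron from macrophages, read 10.41 against 14.22, 14.0-fold lower, and at most 9.05 elsewhere. Of the 764 genes at least 2-fold lower, chosen by their values on these 2 arrays, osteocytes were the brightest of the 10 arrays for 312 (40.8%) and chondrocytes the dimmest for 217 (28.4%).

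Macrophage markers were bright in both samples, with a median difference near 0. Of 24 measured markers, 23 were detected on at least 1 of the 2 arrays, and Cybb was detected on neither. The sum of their intensities was 236736 in chondrocytes and 224357 in osteocytes, against 876 to 1809 on the other 8 arrays. In RNA from a mixed population, fewer cells of a type and less RNA per cell cannot be told apart. The median difference of the markers was -0.05 (log2), 2 were at least 2-fold higher in chondrocytes and 3 at least 2-fold lower. Adgre1, the classical mouse macrophage antigen, read 12.98 against 13.23, and C1qb, a subunit of complement C1q made by macrophages, 14.39 against 14.51. Tyrobp, a signalling adaptor of myeloid receptors, read 12.84 against 12.82. The other 8 arrays stayed at or under 5.27 for these genes and for C1qc, Fcer1g and Laptm5.

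The 5 macrophage markers past 2-fold were 21.7% of the 23 detected, against 14.6% of all genes. Ms4a6d, a membrane protein of monocytes, read 15.04 in chondrocytes and 13.86 in osteocytes, 2.27-fold higher. Cd163, the scavenger receptor for haemoglobin, read 6.22 against 4.88, at least 1.75-fold higher. Aif1, Cx3cr1 and Clec7a, an actin-binding protein, the fractalkine receptor and dectin-1, were 2.75-fold, 2.56-fold and 2.34-fold lower, at 8.99, 6.69 and 9.29 in chondrocytes against 10.45, 8.04 and 10.52 in osteocytes, although another Clec7a probe differed by -0.59 (log2). Osteoclast genes did not separate the samples in the same way. Of 15 measured, 9 were detected, and 1, Ctsk (cathepsin K), passed 2-fold, at 13.42 against 11.85. Calcr, Dcstamp, Ocstamp and Atp6v0d2, which mark mature osteoclasts, were not detected on either array, and the list summed to 19545 in chondrocytes and 12326 in osteocytes.

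Genes that vary between states of macrophages spanned differences between 9.45 and -6.67 (log2), wider than the 1.35 to -1.46 of the identity markers. Of 12 detected genes of a macrophage state list, 3 were at least 2-fold higher in chondrocytes (Chil3, Il1rn and Apoe) and 5 at least 2-fold lower (Mmp12, Folr2, Il6, Ptgs2 and Tnf), with a median of -0.71 (log2), or -0.21 over all 19 measured. Without background correction 3 and 3 passed 2-fold. Between the MSC arrays, 5 of the 12 were at least 2-fold higher in MSC 2 and 1 at least 2-fold lower. The difference between chondrocytes and osteocytes was the larger for 7 of the 12. Il1rn was also bright without macrophage markers, at 12.95 in MSC 1 against 12.22 in chondrocytes. Apoe, a lipid carrier secreted by macrophages, read 14.50 in chondrocytes and 11.86 in osteocytes, 6.23-fold higher, against at most 6.72 on the other 8 arrays. Mmp12, macrophage elastase, was not detected in chondrocytes at 5.34 and read 12.00 in osteocytes, at least 95.5-fold lower, with no other array above 4.86. Folr2, a folate receptor of resident macrophages, read 6.63 against 9.71, 8.46-fold lower. Marco, a scavenger receptor of macrophages, was detected in osteocytes alone, at 4.63 against 9.24, at least 14.1-fold lower. The probes of Gpnmb, a glycoprotein of lipid-laden macrophages and of osteoblasts, disagreed. The brightest, near the top of the scale, read 14.59 against 14.63, while the other 3 detected probes differed by -1.01, -1.88 and -1.76 (log2), each at least 2-fold lower in chondrocytes. The width of the state list was set by Chil3 and Mmp12, which were already among the largest differences.

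Several chemokines were lower in chondrocytes, on a mixed list that is not confined to macrophages. Of 18 detected chemokine and cytokine genes, 9 were at least 2-fold lower in chondrocytes and 4 at least 2-fold higher, and the median was -0.82 (log2), or -0.30 over all 23 measured. Between the MSC arrays, 3 of the 18 were at least 2-fold higher in MSC 2 and 3 at least 2-fold lower. The list summed to 33645 in chondrocytes and 38756 in osteocytes, within the 15649 to 41710 of the other 8 arrays. Ccl4, a chemoattractant of monocytes, read 10.80 in chondrocytes and 13.26 in osteocytes, 5.53-fold lower, and Ccl3, its relative, 10.47 against 11.68. Ccl6 was detected in osteocytes alone, at 5.35 against 9.55, at least 17.5-fold lower. Ccl8 and Ccl12, which attract monocytes through CCR receptors, read 9.74 against 12.03 and 6.48 against 9.01. Pf4, a chemokine of platelets that macrophages also make, read 7.80 against 11.00, 9.15-fold lower, and was the lowest in difference of the 358 genes detected on both arrays only. On the other side stood Il33, an alarmin of stromal cells, at 10.05 against 5.22 or at least 24.8-fold higher, and Cxcl12 and Cxcl14, chemokines of stromal cells, at 13.87 against 11.75 and 11.03 against 8.89. Complement genes were mixed, with C2, C4b, Cfb and Serping1 at least 2-fold higher of 10 detected and Cfp (properdin) 13.1-fold lower, at 9.46 against 13.16.

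**Figure D3:**
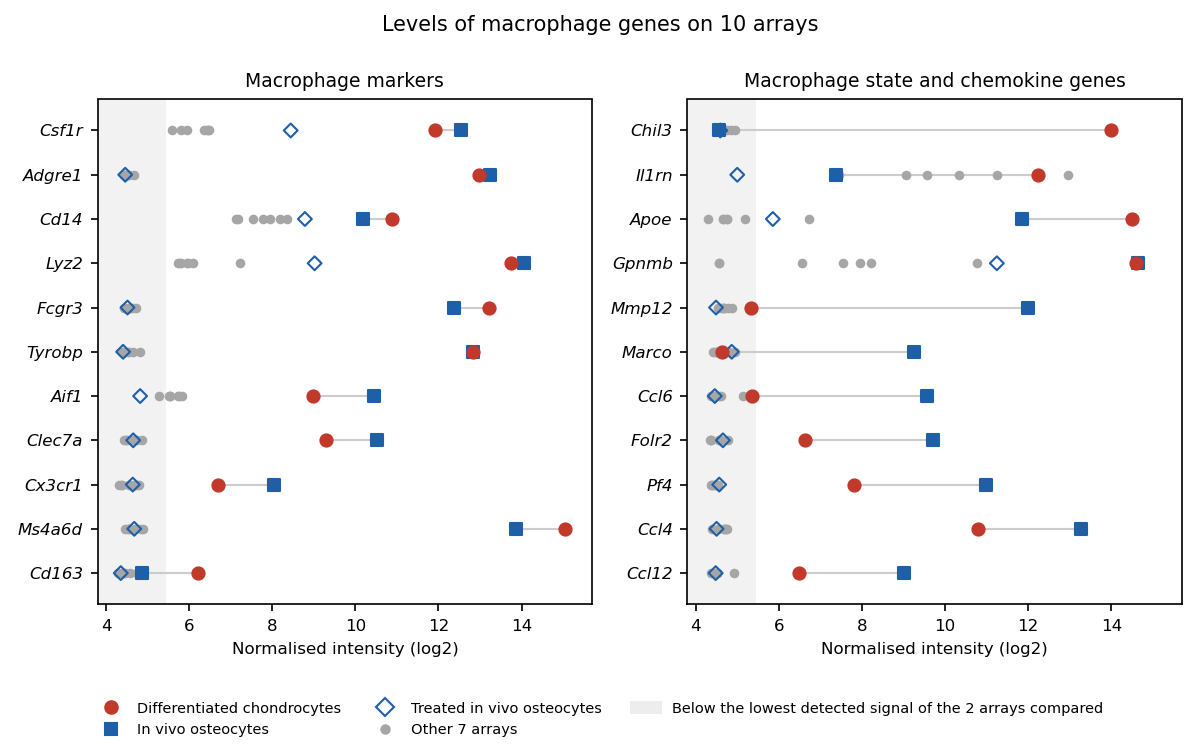
Log2 intensity (horizontal axis) of 11 macrophage markers (left) and 11 macrophage state and chemokine genes (right) on 10 arrays, with differentiated chondrocytes in red, in vivo osteocytes in blue, treated in vivo osteocytes as open diamonds and the other 7 arrays in grey; each point is 1 array. Some identity markers, such as Tyrobp (12.84 against 12.82), nearly coincide on the pair and are at background on most other arrays. Others, such as Aif1 and Cx3cr1, differ by over 2-fold, and Chil3 (14.00 against 4.55) and Mmp12 (5.34 against 12.00) lie far apart.

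Small leucine-rich proteoglycans, which bind collagen fibrils and set their width and spacing, differed at single members in both directions. Of 13 measured genes, 8 were detected in chondrocytes and 5 in osteocytes, so that 3 entered only through the chondrocyte array. Of the 8, 5 were at least 2-fold higher (Fmod, Lum, Chad, Prelp and Dcn) and 2 at least 2-fold lower (Omd and Ogn), and the median over all 13 was 0.12 (log2). Prelp, which anchors collagen to basement membranes, read 14.01 in chondrocytes and 11.02 in osteocytes, 7.97-fold higher, and at most 10.87 elsewhere. Lum (lumican), which organises thin fibrils, read 8.38 against 4.61, at least 7.81-fold higher, although treated in vivo osteocytes read 8.24. Dcn (decorin) read 12.46 against 9.52, 7.71-fold higher, but MSC 2 minus MSC 1 was -6.01 (log2), with 5.07 in MSC 2 and 11.08 in MSC 1. Bgn (biglycan), abundant in bone and cartilage, did not separate the samples, at 14.57 against 14.46. Ogn (osteoglycin), also called mimecan, was 2.86-fold lower, at 9.64 against 11.15, with -0.71 and -1.32 (log2) at its other probes.

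The wider collagen matrix was higher in chondrocytes than in osteocytes as well. Its list summed to 115453.5 in chondrocytes and 64069.9 in osteocytes, both within the 44388.4 to 145734.5 of the other 8 arrays. Of 20 detected genes, 11 were at least 2-fold higher and 1 at least 2-fold lower, with a median of 1.19 (log2), and between the MSC arrays 4 of the 20 were at least 2-fold higher and 4 lower. Col8a1, a short-chain network collagen, read 12.79 against 10.01, 6.85-fold higher. Postn (periostin), a matrix protein of periosteum and ligament, read 7.56 against 4.80, at least 4.43-fold higher, and Col3a1, the fibrillar collagen of soft connective tissue, 11.48 against 9.65. Vcan (versican), an embryonic proteoglycan, was 2.95-fold lower, at 7.46 against 9.02. The enzymes that modify and fold collagen differed little: of 11 detected, 10 were nominally higher but 1, the lysyl hydroxylase Plod2, passed 2-fold at 10.44 against 9.34.

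Genes that control mineral went both ways. Of 9 detected, 4 were at least 2-fold higher in chondrocytes and 2, Alpl and Bglap, at least 2-fold lower. Ank, which exports the mineralisation inhibitor pyrophosphate, read 12.23 in chondrocytes and 10.25 in osteocytes, 3.93-fold higher. Mgp, matrix Gla protein, which keeps cartilage from calcifying, read 15.16 against 13.58, 2.97-fold higher, although MSC 2 minus MSC 1 was -3.89 (log2). Slc20a1, a phosphate importer, read 9.27 against 7.17 but differed by 0.38 (log2) at another probe, and Fam20a, a secretory pathway pseudokinase, 10.22 against 8.19. The inhibitors Ank and Mgp were thus higher, and the phosphatase Alpl lower, in the same sample.

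Of 18 detected proteases and inhibitors, 7 were at least 2-fold lower in chondrocytes, 3 at least 2-fold higher and 8 within 2-fold. Without background correction 4 were at least 2-fold lower. Plau (urokinase) and Plat (tissue plasminogen activator) were 13.9-fold and 4.30-fold lower, at 7.15 and 7.56 in chondrocytes against 10.95 and 9.67 in osteocytes. Mmp10 (stromelysin 2) read 5.30 against 7.01, at least 3.00-fold lower, and Mmp3 (stromelysin 1) 9.29 against 10.39. Timp4, an inhibitor of matrix metalloproteases, was at least 5.54-fold higher, at 7.88 against 4.75. The median over the list was -0.45 (log2), and the MSC arrays had a median difference of -0.51 over the same genes.

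Growth factor pathways differed at single components. All 11 genes of the insulin-like growth factor system were detected, and 6 were at least 2-fold higher in chondrocytes and 0 lower, with a median of 1.01 (log2). The count was 3 without background correction and 4 with an offset of 50, with medians of 0.48 and 0.72. Between the MSC arrays, 0 of the 11 were at least 2-fold higher in MSC 2 and 4 at least 2-fold lower. The difference between chondrocytes and osteocytes was the larger for 6 of the 11. Igf2, the fetal ligand, read 10.39 in chondrocytes and 7.34 in osteocytes, 8.32-fold higher, whereas MSC 2 minus MSC 1 was -3.96 (log2). Htra1, a protease that cleaves binding proteins and matrix, read 10.74 against 8.40, and Igfbp6, a binding protein that prefers IGF2, 9.96 against 8.56 with at most 5.08 elsewhere. Igf1 itself read 11.45 against 12.27.

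Of 18 detected Wnt genes, 3 were at least 2-fold higher and 4 at least 2-fold lower, with a median of 0.04 (log2). Between the MSC arrays, 0 of the 18 were at least 2-fold higher in MSC 2 and 6 at least 2-fold lower. The difference between chondrocytes and osteocytes was the larger for 9 of the 18. Rspo3, a secreted enhancer of Wnt signals, read 9.86 in chondrocytes and 6.25 in osteocytes, 12.2-fold higher, and at most 7.38 elsewhere. Frzb, a Wnt antagonist first isolated from cartilage, read 8.30 against 6.16, while the related antagonists Sfrp2 and Sfrp4 were 9.32-fold and 4.96-fold lower, at 6.11 and 5.62 against 9.33 and 7.93. Axin2, a transcriptional target of the pathway, read 6.25 against 7.29. Ligand-binding proteins of 1 family thus pointed in both directions.

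Of 21 detected TGF-beta and BMP genes, 4 were at least 2-fold higher and 1, Grem1, at least 2-fold lower, with a median of -0.20 (log2). Without background correction 1 was at least 2-fold higher. Between the MSC arrays, 5 of the 21 were at least 2-fold higher in MSC 2 and 5 at least 2-fold lower. The difference between chondrocytes and osteocytes was the larger for 7 of the 21. Bmpr1b, a BMP receptor required for cartilage condensations, read 7.44 against 5.56, 3.69-fold higher, and at most 5.86 on the other 8 arrays. Tgfbi, a TGF-beta-induced adhesion protein, read 11.69 against 9.66, but MSC 2 read 11.67 and MSC 1 9.72. Among 5 detected Hedgehog and PTHrP genes, Gli2, a transcription factor of Hedgehog signalling, was at least 4.87-fold higher, at 7.70 against 5.00. The other Gli2 probe was not detected on either array, at 4.84 against 4.60. Ligands and receptors of these pathways otherwise lay mostly within 2-fold.

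Genes that respond to glucocorticoids, a class of steroid hormones, were higher in chondrocytes as a group. All 16 were detected, 11 were at least 2-fold higher and 0 lower, with a median of 1.79 (log2) against -0.10 between the MSC arrays. Fkbp5, which holds the glucocorticoid receptor in its inactive complex, read 12.02 in chondrocytes and 6.62 in osteocytes, 42.2-fold higher. The highest other values of Fkbp5 were 12.14 in differentiated osteocytes and 11.80 in differentiated adipocytes, and the remaining 6 arrays lay between 7.23 and 8.38, so the 3 samples labelled as differentiated stood above the rest. Tsc22d3 (GILZ), an anti-inflammatory target, read 12.85 against 10.20, 6.28-fold higher, with 14.01 and 12.65 in differentiated osteocytes and adipocytes. Sult1a1, a sulfotransferase, read 11.47 against 7.02, 21.8-fold higher, with 12.64 and 13.59 on the same arrays. Mt2, a metal-binding metallothionein, read 10.67 against 6.75, 15.2-fold higher, and Serpina3n, a protease inhibitor, 14.23 against 11.24. Per1 read 10.13 against 7.92 and Zbtb16 6.99 against 5.09. The labels name no agent for the chondrocyte or the osteocyte sample.

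Interferon-stimulated genes and cell cycle genes were lower in chondrocytes, and both groups also differed between the MSC arrays. Of 12 detected interferon-stimulated genes, 10 were at least 2-fold lower and 0 higher, with a median of -2.04 (log2), or -1.39 over all 16 measured, and 6 were at least 2-fold lower without background correction. Isg15, a ubiquitin-like antiviral modifier, read 6.60 in chondrocytes and 10.16 in osteocytes, 11.8-fold lower, and Rsad2 (viperin), an antiviral enzyme, 5.77 against 9.07. Over the same 12 genes MSC 2 minus MSC 1 had a median of -3.71 and 11 were at least 2-fold lower, so the difference was smaller than that between the samples of 1 population for all but 1 gene. Of 21 detected cell cycle genes, 19 were at least 2-fold lower in chondrocytes and 0 higher, with a median of -1.61. Mcm5, a subunit of the replicative helicase, read 7.10 against 9.71, and Top2a, the topoisomerase of dividing cells, 5.53 against 7.42. The MSC arrays had a median difference of 1.67 over these 21 genes, with 19 at least 2-fold apart in MSC 2's favour. The difference between chondrocytes and osteocytes was the larger for 13 of the 21.

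**Figure D4:**
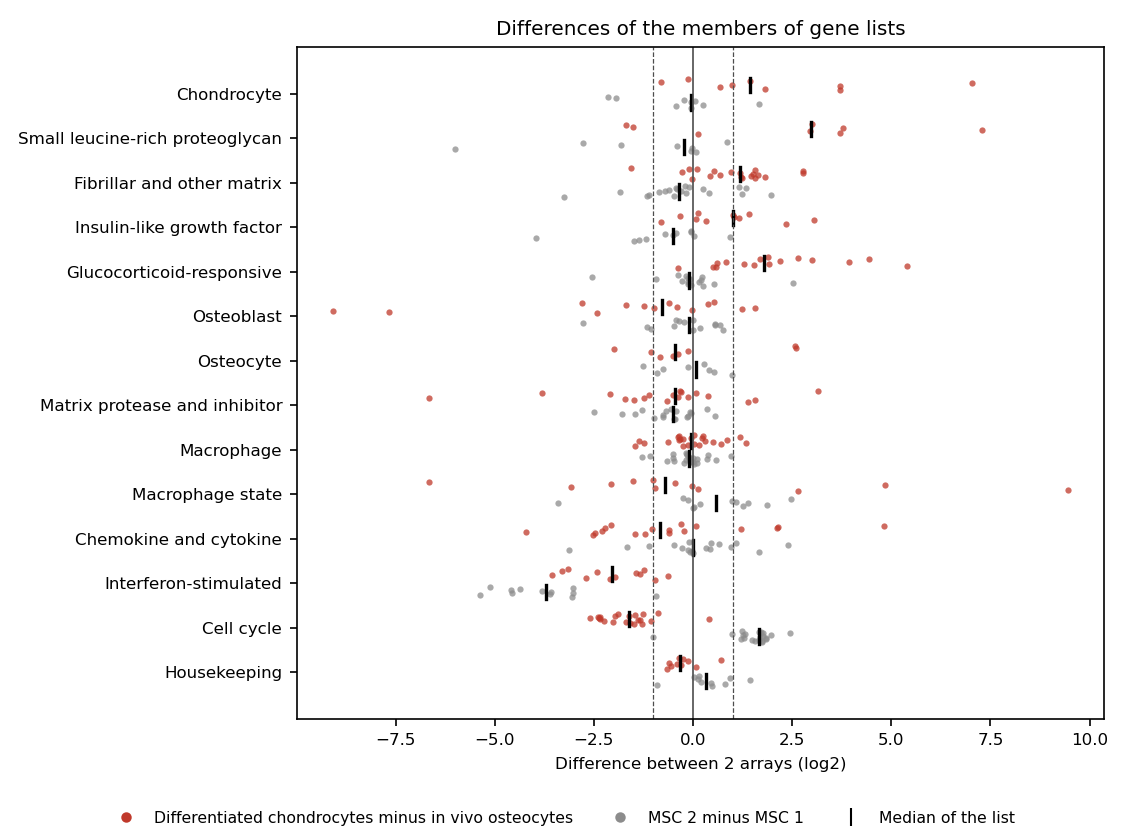
Log2 differences (horizontal axis) of the detected members of 14 gene lists, differentiated chondrocytes minus in vivo osteocytes in red and MSC 2 minus MSC 1 in grey; each point is 1 gene and black bars are list medians. The glucocorticoid-responsive list has a median of 1.79 against -0.10 between the MSC arrays. Interferon-stimulated genes (-2.04 against -3.71) and cell cycle genes (-1.61 against 1.67) have medians at least as large in size between the MSC arrays.

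Markers of fat and stroma were uneven. Of 7 detected adipocyte genes of 13 measured, 4 were at least 2-fold higher in chondrocytes and 1 at least 2-fold lower, with a median of 1.11 (log2), or 0.16 over all 13. Adipoq (adiponectin), the adipocyte hormone, read 9.70 in chondrocytes and 5.61 in osteocytes, 17.0-fold higher, against 14.70 in differentiated adipocytes. Lpl (lipoprotein lipase) went the other way, at 11.12 against 14.35, 9.42-fold lower. The summed adipocyte intensity was 8435 in chondrocytes and 22520 in osteocytes, against 132721 in differentiated adipocytes, and the part of these markers in the result was not tested. Among 14 detected marrow stromal genes, 5 were at least 2-fold higher and 3 at least 2-fold lower. Nt5e (CD73), an ectonucleotidase of MSC, read 10.95 against 7.49, 10.9-fold higher, while Thy1 (CD90), another MSC antigen, read 6.43 against 10.01, 11.9-fold lower. Thy1 was at background on the other arrays except treated in vivo osteocytes at 9.81.

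Few lymphoid, red cell, endothelial and skeletal muscle markers were detected, whereas most smooth muscle and pericyte markers were. Of 10 measured erythroid markers 0 were detected on either array, of 10 T and NK cell markers 1, of 10 B cell markers 3 and of 7 megakaryocyte markers 3. Of 12 measured markers each, 4 were detected for endothelium, 4 for skeletal muscle and 4 for dendritic cells and MHC class II, and 9 for smooth muscle and pericytes. The smooth muscle list summed to 32544 in chondrocytes and 35127 in osteocytes. Acta2, smooth muscle actin, was bright in both, at 14.89 against 14.94, and Notch3 was 3.74-fold lower, at 6.26 against 8.16. Eif2s3y, a Y-linked gene, was not detected in chondrocytes at 4.34 and read 7.36 in osteocytes, at least 3.82-fold lower, against 11.31 in treated in vivo osteocytes and at most 4.75 elsewhere. Xist, the RNA of the inactive X chromosome, read 7.31 in chondrocytes and 8.70 in osteocytes, with 4.53 in treated in vivo osteocytes, and its other probes differed by 0.38 to 0.51 (log2) in the opposite direction. The other Eif2s3y probe was not detected on either compared array, at 4.89 in chondrocytes against 4.67 in osteocytes. The labels give no sex, and the in vivo osteocyte array carried both transcripts at their brightest probes.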

How the data were processed

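Total RNA of 10 samples was hybridised to Illumina mouse bead arrays, 1 array a sample, and samples were grouped by their labels. Per the file headers, the deposited scanner table lists 45281 probes, with an intensity and, beside it, a detection p-value per array. The sources used here do not say how the authors made them; the deposited intensities of 8 arrays, both compared ones included, already shared 1 distribution. From its values, the deposited value table holds background-subtracted intensities for 8 arrays, the compared ones included, and log2 values for the other two. Its identifiers are out of order for the 8, so it was tied to the scanner table by rank and served as an alternative. Background was corrected with limma 3.58.1 in R 4.3.3 (normexp from detection p-values, offset 16), followed by quantile normalisation over 10 arrays and log2. A probe entered at a detection p-value under 0.01 on at least 1 of the 2 arrays, and counted as different from 2-fold. A gene was read at its brightest probe. Gene symbols came from the platform annotation: 34885 probes had 1 symbol, 18 several and 10378 none. Of 601 genes on 38 lists, 549 were measured. Named were the 15 largest differences each way, the 15 largest again without blood and muscle markers, and list members. Members and lists were chosen with earlier results of these data known. The method was tested on simulated data. The number of arrays limits the precision.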

Additional observations from a re-analysis of the deposited data

How the results depend on the processing

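The counts of probes at least 2-fold higher and lower in differentiated chondrocytes, 1366 and 1193, depended on the treatment of background. Without background correction they were 585 and 460, and with an offset of 50 they were 858 and 728. Normalising the 2 arrays alone or the 8 arrays of 1 distribution, 75th percentile scaling, a detection limit of 0.05, no detection filter and the value table gave between 1368 and 1475 higher and between 1193 and 1734 lower. In the value table the median over all genes was -0.19 (log2), against -0.07 to -0.02 in the other settings, and 46.0% of the probes past 2-fold were higher, against 53.4%. The count of members past 2-fold moved by over 1.5 times in 14 of 38 lists without background correction, in 6 with an offset of 50, in 7 in the value table and in 5 by the median over probes. All 31 named genes kept their direction and 2-fold under every alternative run. Of 171 list members past 2-fold, 121 remained past it without background correction, 147 with an offset of 50 and 166 in the value table. Taking the median over probes reversed Ctsa to 0.17 (log2), against -1.27 at its brightest probe, and Xist to 0.40, against -1.39. The median of the Wnt list was 0.04 and turned to -0.09 in the value table and -0.03 by the median over probes. The median of the macrophage list, -0.05, turned to 0.01 in the value table. No paired analysis was possible because each population but MSC had 1 array and the result comes from no test. No replicate could be left out for the same reason. For the 170 genes past 2-fold with a bound under 2-fold, the signal of the array without detection limits the fold.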

Other observations

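Several gene groups were not described above. Of 18 detected Hox genes, 5 were at least 2-fold higher in differentiated chondrocytes and 0 lower, against 6.91% higher and 7.69% lower over all genes. With an offset of 50 there were 3, without background correction 2, and 3 of the 5 held 2-fold as a bound. Hoxb4, a patterning transcription factor, read 9.37 in chondrocytes and 7.58 in in vivo osteocytes, 3.47-fold higher, and 9.91 in treated in vivo osteocytes, while the remaining arrays reached 5.67. Hoxb7 read 7.73 against 5.27, at least 4.97-fold higher, and Hoxb2 7.47 against 5.56. Of 15 detected genes of hypoxia and glycolysis, 4 were at least 2-fold lower, with a median of -0.55 (log2) and 0.89 between the MSC arrays. Car9, a carbonic anhydrase induced by low oxygen, read 6.29 against 7.58, with -0.96 (log2) at its other detected probe, and was detected on both compared arrays only. Pkm, pyruvate kinase, was 2.38-fold lower at its brightest probe and 0.41 (log2) higher at another. All 8 detected genes of cholesterol synthesis lay within 2-fold at their brightest probe, with a median of 0.45 (log2), or 0.68 by the median over probes. There 1 gene passed 2-fold, Insig1, a regulator of sterol synthesis, whose brightest probe differed by 0.09 (log2) and its other 2 detected probes by 1.17 and 1.72. Of 16 immediate-early genes, Egr1 was 3.19-fold higher, at 13.29 against 11.62, and Fos and Atf3 were 2.06-fold and 2.82-fold lower.

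Among the 358 genes detected on both compared arrays and no other, Comp had the largest difference towards chondrocytes, followed by Htr2b, a serotonin receptor, at 11.74 against 7.49. Next were Limch1 at 8.34 against 5.49 and Ms4a6b at 9.98 against 7.48. Towards osteocytes stood Pf4, Folr2, Cd300ld3 at 5.50 against 8.55, and Dok2, an adaptor of myeloid kinases, at 6.23 against 8.90. These 8 genes were chosen after their values were seen.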
